A study of Mus musculus with 35 samples.

Results

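The genes described here encode the ligands, receptors and Smad proteins of transforming growth factor beta (TGF-beta), bone morphogenetic protein (BMP) and activin signalling. They are all genes whose mouse symbol begins with Bmp (leaving out the kinase gene Bmp2k), Gdf, Tgfb, Inhb, Acvr or Smad. Of 53 such symbols in the gene name table, 49 were among the 18947 genes of the mRNA comparison. Bmp10, Gdf1, Gdf7 and Inhbc were not analysed here. The mRNA comparison rests on 4 samples of interscapular brown adipose tissue (iBAT) and 4 samples of epididymal white adipose tissue (eWAT), dissected from untreated male C57BL/6J mice aged 15 weeks. Both groups are whole fat depots with no genetic change named in the labels, and so hold adipocytes together with stromal, vascular and immune cells. No label states the housing temperature of these animals or that the samples came from separate animals, so p-values may measure only technical spread. The series of 35 samples also holds 18 miRNA and 9 Argonaute CLIP samples, which were not used here.

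In this pathway a secreted dimeric ligand brings together type I and type II receptor kinases at the cell surface. The type I receptor then phosphorylates receptor-regulated Smads, which enter the nucleus with the common Smad4 and act on transcription, while Smad6 and Smad7 inhibit the signal. TGF-beta and activin ligands act mainly through Smad2 and Smad3, and BMPs through Smad1, Smad5 and Smad9. In fat, BMP4 and BMP2 are known for committing mesenchymal progenitors to the adipocyte lineage, BMP7 for promoting brown adipocyte differentiation in mice, and TGF-beta for restraining adipocyte differentiation and building matrix.

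Each gene has 5 values in the authors' deposited table: a base mean, which averages size-factor-normalized counts over all samples, a log2 fold change, its standard error (SE), a p-value and an adjusted p. Values of single libraries were not analysed here, so the depth per library is unknown and no SD over samples or overlap between the groups can be given. Fold changes are iBAT over eWAT, so a positive value means higher in iBAT. This direction is not in the header and was read from Ucp1 and Cidea (positive) and from Wt1 and Lep (negative). A gene is called higher or lower in iBAT at an adjusted p under 0.05 per the authors' deposited table. The base mean depends on transcript length, so levels are not compared between genes.

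The depot labels fitted their markers per the authors' deposited table. All 8 brown adipocyte markers were higher in iBAT (median log2 fold change 7.95) and all 8 white adipocyte markers were lower (median -3.86). Other cell types differed too. All 12 skeletal muscle markers were higher in iBAT (8.24), while all 11 mesothelial markers (-9.37), all 12 macrophage markers (-1.89), 11 of 12 fibroblast and progenitor markers (-1.04), 7 of 12 lymphocyte markers (-1.33) and 7 of 9 epididymal markers (-14.34) were lower per the authors' deposited table. Endothelial markers split into 2 higher, 4 lower and 6 not called (-0.24), and smooth muscle and pericyte markers into 5 higher and 5 lower (-0.61). Acta2 and Tagln of the smooth muscle and pericyte list are also TGF-beta targets. Without them 5 were higher, 3 lower and the median was 0.64. The summed level of these lists per library could not be computed, and their part in the values below was not tested. In whole depots, fewer cells of a type and less RNA per cell cannot be told apart.

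Most calls in the families pointed to lower expression in iBAT. Per the authors' deposited table, 31 of the 49 members were called, 22 lower and 9 higher, and 18 were not called. Across all genes 48% were called, 27.1% lower and 20.9% higher in iBAT. The members' share of lower calls was 44.9% and their share of higher calls 18.4%, and their median log2 fold change was -0.38 against -0.10 for all genes. Members had a base mean above the median of all genes (343) in 28 cases. Of those 28 members 13 were lower and 6 higher in iBAT (46.4% and 21.4%), against 24.8% lower and 32.1% higher among all 9473 genes of above-median base mean. Under other call rules the share of members called stood above that of all genes as well: 27 members with p from fold change over SE (42.8% of all genes called), 29 after centring that test on the median of all genes (43.6%), and 27 at an adjusted p under 0.01 (38.7%). With a log2 fold change of at least 1 the members called numbered 23 (30.6%), and with a base mean of at least 50 they were 30 of 39, 20 of them lower (58.7% of all such genes called, 30.3% lower). Calls by role ran in different directions. In iBAT 12 of 23 ligand genes were called lower and 3 higher, and 4 of 7 type I receptor genes were called lower. Of 4 type II receptor genes 1 was called higher (25%) and the others were not called, while both co-receptor genes were called higher. The 8 Smad genes gave 3 higher and 2 lower calls (37.5% and 25%). Both Smad shares lie near those of all genes of above-median base mean.

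**Figure D1:**
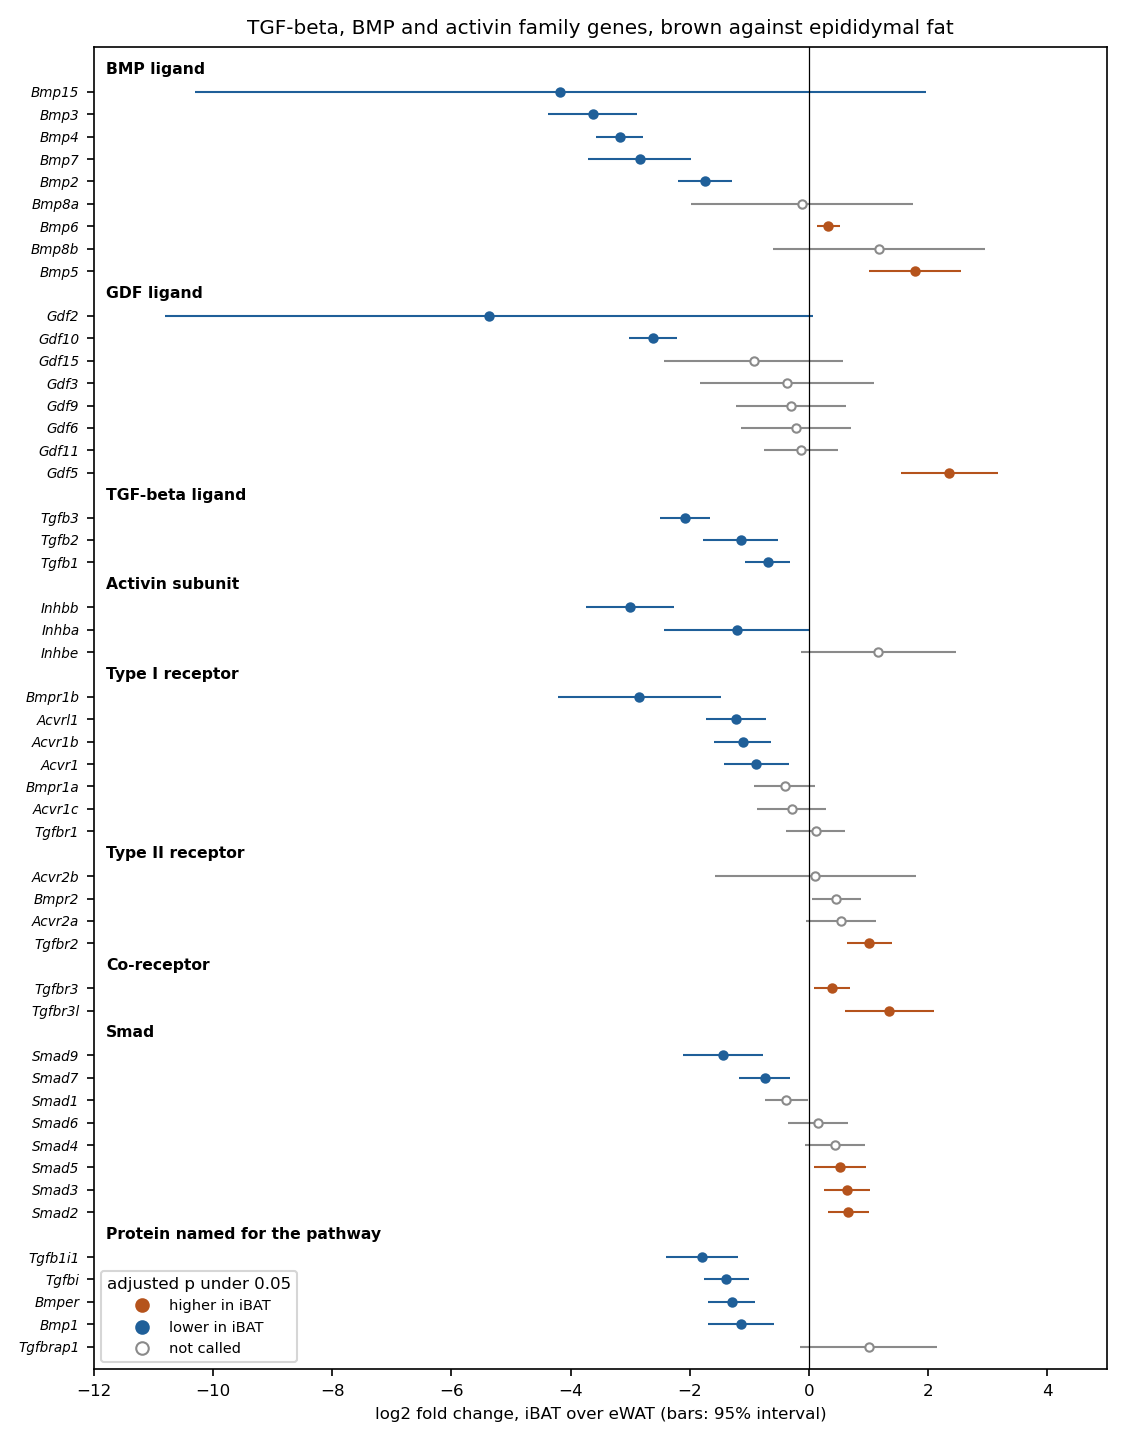
Log2 fold change of mRNA in iBAT over eWAT for the 49 members, grouped by role (points, with bars of 1.96 SE either side, from the authors' deposited table; filled points are called at an adjusted p under 0.05). Of the 23 ligand genes 12 lie to the left and are called lower in iBAT, while Tgfbr2, Tgfbr3, Tgfbr3l, Smad2, Smad3 and Smad5 lie to the right.

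The promoters of 6 called members are shown, 3 lower and 3 higher in iBAT, which are not the 6 members furthest apart. They are the 3 called members with the lowest and the 3 with the highest log2 fold changes among the 16 called members that have a base mean of at least 50 and a single RefSeq promoter window (Bmp4, Inhbb and Gdf10 lower; Bmp5, Tgfbr3l and Tgfbr2 higher). Each window runs 5′ to 3′ on the gene's strand from 250 bases before to 50 bases after the annotated start (RefSeq, GRCm38.p6). Bmp4 lies at chr14:46390620-46390919 (minus strand), Inhbb at chr1:119422199-119422498 (minus), Gdf10 at chr14:33923337-33923636 (plus), Bmp5 at chr9:75775115-75775414 (plus), Tgfbr3l at chr8:4247964-4248263 (plus) and Tgfbr2 at chr9:116175314-116175613 (minus). Capitals mark matches on either strand to CAGAC, the Smad box (GTCTG on the other strand), to GGCGCC, a GC-rich site that Smads also bind, and to TATAAA, the TATA box.
Bmp4: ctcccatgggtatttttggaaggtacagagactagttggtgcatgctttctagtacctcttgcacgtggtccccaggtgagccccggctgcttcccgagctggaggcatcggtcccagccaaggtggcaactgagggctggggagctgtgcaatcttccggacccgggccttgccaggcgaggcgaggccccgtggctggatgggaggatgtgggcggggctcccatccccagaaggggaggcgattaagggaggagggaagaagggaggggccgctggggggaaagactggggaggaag
Inhbb: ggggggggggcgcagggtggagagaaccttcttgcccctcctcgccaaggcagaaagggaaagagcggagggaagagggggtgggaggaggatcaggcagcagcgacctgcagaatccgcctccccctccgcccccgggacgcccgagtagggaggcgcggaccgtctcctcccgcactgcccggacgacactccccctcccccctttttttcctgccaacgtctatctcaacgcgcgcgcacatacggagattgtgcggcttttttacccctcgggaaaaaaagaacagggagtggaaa
Gdf10: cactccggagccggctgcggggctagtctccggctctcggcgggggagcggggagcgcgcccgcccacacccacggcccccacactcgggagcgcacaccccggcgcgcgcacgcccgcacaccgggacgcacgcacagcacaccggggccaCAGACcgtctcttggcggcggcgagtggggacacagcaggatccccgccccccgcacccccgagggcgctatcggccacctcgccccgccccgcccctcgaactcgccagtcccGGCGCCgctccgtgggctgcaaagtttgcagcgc
Bmp5: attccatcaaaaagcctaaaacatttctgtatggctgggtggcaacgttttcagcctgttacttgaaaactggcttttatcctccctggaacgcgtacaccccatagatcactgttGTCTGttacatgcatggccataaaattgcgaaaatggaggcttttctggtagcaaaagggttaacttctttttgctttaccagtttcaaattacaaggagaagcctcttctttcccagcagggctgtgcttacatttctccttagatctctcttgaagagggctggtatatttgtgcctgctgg
Tgfbr3l: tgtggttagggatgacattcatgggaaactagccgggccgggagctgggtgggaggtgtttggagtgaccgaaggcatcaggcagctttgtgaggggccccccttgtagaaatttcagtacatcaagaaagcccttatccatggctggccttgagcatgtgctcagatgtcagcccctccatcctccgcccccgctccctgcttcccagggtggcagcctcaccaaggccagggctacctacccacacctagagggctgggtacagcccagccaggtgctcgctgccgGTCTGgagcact
Tgfbr2: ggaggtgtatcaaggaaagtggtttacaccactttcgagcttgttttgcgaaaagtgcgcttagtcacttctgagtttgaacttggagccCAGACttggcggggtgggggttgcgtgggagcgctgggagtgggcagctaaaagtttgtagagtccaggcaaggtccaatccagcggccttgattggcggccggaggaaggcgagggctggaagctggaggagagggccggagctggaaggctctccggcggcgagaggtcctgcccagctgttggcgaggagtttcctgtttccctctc

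The windows of the 3 lower genes held 64% (Bmp4), 64.3% (Inhbb) and 77.3% (Gdf10) G and C, and those of the 3 higher genes 43.3% (Bmp5), 60.7% (Tgfbr3l) and 59% (Tgfbr2), beside a median of 52.7% over all 32851 windows. CpG dinucleotides numbered 12, 23 and 42 in the lower genes and 4, 7 and 15 in the higher ones, in the same orders. The median was 7 over all windows and 24 over members' windows. These 6 windows were picked by fold change and do not stand for the other members called in either direction. The Smad box occurred once in Gdf10, Bmp5, Tgfbr3l and Tgfbr2, starting at -98, -134, 38 and -160 from the annotated start, and GGCGCC once in Gdf10, at 16, without overlap. No searched motif was in the Bmp4 or Inhbb window. The Smad box is common: it was in 49.6% of all windows and in 19 of the 42 windows of the 34 members with an entry (45.2%). GGCGCC was in 10 of the 42 (23.8%) and in 11.9% of all windows, with a median G and C content of 64.7% in members' windows. TATAAA was in 6 of the 42 (14.3%) and in 13.6% of all windows. These matches describe letters in a window and say nothing about binding.

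Among 9 BMP ligand genes there were 5 lower calls in iBAT, 2 higher calls and 2 without a call per the authors' deposited table. Their median log2 fold change was -1.74 per the authors' deposited table. Lower calls made up 55.6% and higher calls 22.2%, against 27.1% and 20.9% of all genes. The lower call of Bmp15, described below, was lost with p from fold change over SE. Bmp3, which encodes an atypical BMP that opposes the others in bone, was lower in iBAT at -3.63 ± 0.38 (SE; adjusted p = 3.22e-21), a 12.4-fold difference, per the authors' deposited table. Bmp4 was lower at -3.18 ± 0.20 (adjusted p = 2.24e-54), or 9.03-fold, with the smallest adjusted p of the 49 members per the authors' deposited table. Bmp7 was lower at -2.84 ± 0.44 (adjusted p = 1.42e-10) and Bmp2 at -1.74 ± 0.23 (adjusted p = 9.94e-14) per the authors' deposited table. The ligands named above for adipocyte commitment, Bmp4 and Bmp2, and the one named for brown differentiation, Bmp7, were thus all lower in the brown depot.

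Bmp5 and Bmp6, which form a subgroup with Bmp7 by sequence, were higher in iBAT. Bmp5 stood at 1.78 ± 0.39 (adjusted p = 6.62e-06), 3.43-fold higher in iBAT, and Bmp6 at 0.32 ± 0.10 (adjusted p = 0.0022), 1.25-fold higher, per the authors' deposited table. The gene of BMP8B, a BMP known to raise thermogenesis in mouse brown fat, was counted at a base mean of 7.73 and was not called at 1.17 ± 0.91 (adjusted p = 0.11; interval -0.60 to 2.95) per the authors' deposited table. Its near copy Bmp8a, at a base mean of 1.36, was not called at -0.12 ± 0.95 (adjusted p = 0.821) per the authors' deposited table, and the 2 genes may share reads, so their split is uncertain. Bmp15, an oocyte ligand, was called lower at -4.18 ± 3.13 (adjusted p = 0.0141) on a base mean of 3.30, and this call was lost when the p-value was taken from fold change over SE (adjusted p = 0.307).

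Growth differentiation factor (GDF) genes split into 1 higher, 2 lower and 5 not called per the authors' deposited table. The 37.5% called lie below the 48% of all genes, and the 25% lower lie near the 27.1% of all genes. Gdf5, best known for joint formation and a ligand of BMP receptors, was higher in iBAT at 2.35 ± 0.42 (adjusted p = 1.73e-08), 5.10-fold and the highest fold change of the 49 members per the authors' deposited table. Gdf10, a relative of Bmp3, was lower at -2.62 ± 0.20 (adjusted p = 4.44e-37), 6.14-fold, per the authors' deposited table. Bmp3 and Gdf10, which make up a sequence subgroup of their own, were both lower. Gdf2, which encodes the circulating ligand BMP9 made mainly in liver, was called lower at -5.37 ± 2.78 (adjusted p = 0.0015) on a base mean of 4.55 per the authors' deposited table, and lost the call with p from fold change over SE (adjusted p = 0.109). Gdf11, a patterning factor related to myostatin, was not called at -0.13 ± 0.31 (interval -0.75 to 0.48) per the authors' deposited table. The others, Gdf3, Gdf6, Gdf9 and the stress hormone gene Gdf15, had base means between 12.1 and 27.6 and log2 fold changes between -0.93 and -0.22 per the authors' deposited table, none called.

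All 3 TGF-beta genes were lower in iBAT, against 27.1% of all genes. Tgfb3 was lower at -2.08 ± 0.22 (adjusted p = 2.61e-21), Tgfb2 at -1.15 ± 0.32 (adjusted p = 0.000565) and Tgfb1 at -0.69 ± 0.19 (adjusted p = 0.000663) per the authors' deposited table. As ratios the differences were 4.23-fold, 2.22-fold and 1.62-fold. Tgfb1 is made by many immune and stromal cells, and the macrophage and fibroblast marker lists were also lower in iBAT, with medians of -1.89 and -1.04 per the authors' deposited table; their part in the Tgfb1 value was not tested.

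Activin subunit genes followed with 2 of 3 lower, against 27.1% of all genes. Inhbb, which encodes the subunit of activin B and is expressed by white adipocytes, was lower in iBAT at -3.00 ± 0.38 (adjusted p = 2.51e-15), 7.99-fold, per the authors' deposited table. Inhba, the subunit of activin A, was lower at -1.21 ± 0.62 (adjusted p = 0.0403) on a base mean of 50.03, and this call was lost with p from fold change over SE (adjusted p = 0.107). Inhbe, a subunit gene of liver, was not called at 1.16 ± 0.66 (adjusted p = 0.0625; interval -0.14 to 2.46) per the authors' deposited table. Taking all 23 ligand genes, 12 were lower in iBAT, 3 higher and 8 not called, and 9 had a base mean under 50. Lower calls made up 52.2% and higher calls 13.0%, against 27.1% and 20.9% of all genes. The lower calls of Gdf2, Bmp15 and Inhba were lost with p from fold change over SE. The 7 ligand genes of above-median base mean were all called, 6 lower and Bmp6 higher, per the authors' deposited table.

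**Figure D2:**
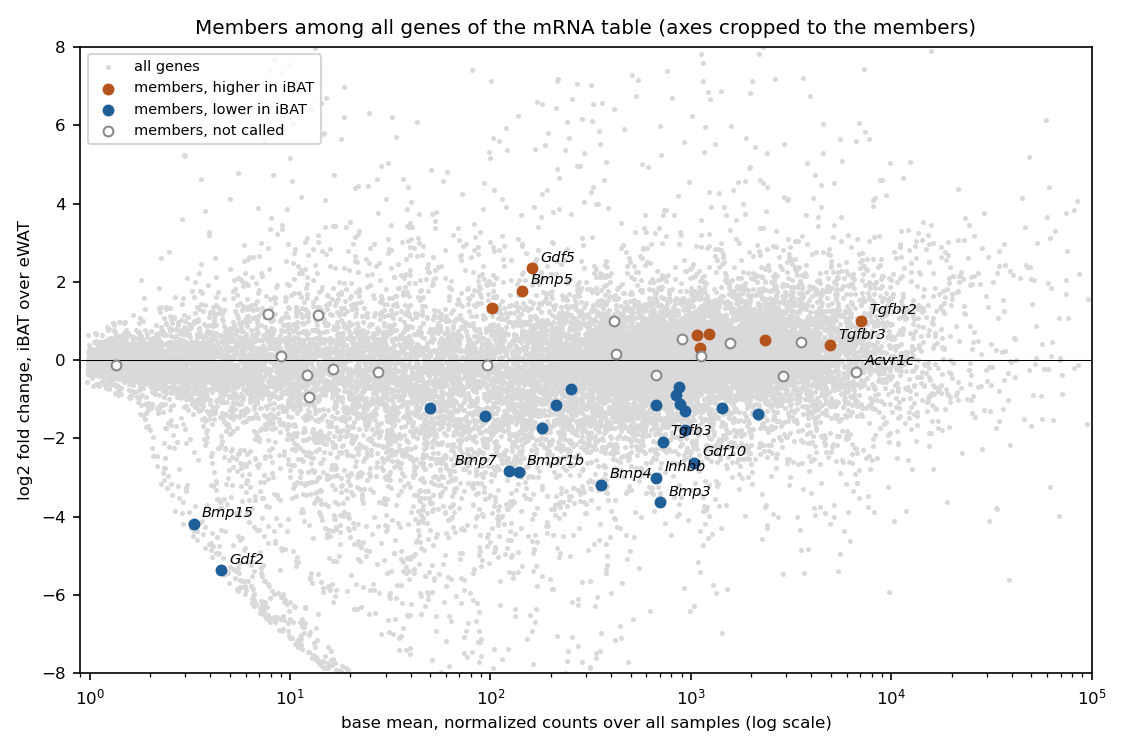
Log2 fold change in iBAT over eWAT against base mean (log scale) for all genes of the authors' deposited table (grey) and for the 49 members (coloured where called). Gdf2 and Bmp15 lie at the lower left edge of the cloud, at base means of 4.55 and 3.30, apart from Bmp3, Bmp4, Inhbb and Gdf10, whose base means are 357 or more.

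Type I receptors were lower in iBAT or not called. Of 7 genes 4 were lower and 3 not called, with a median of -0.89 per the authors' deposited table. Lower calls made up 57.1%, against 27.1% of all genes and 24.8% of all genes of above-median base mean. Bmpr1b, a BMP receptor, was lower at -2.85 ± 0.69 (adjusted p = 1.88e-05), 7.19-fold, per the authors' deposited table. Acvrl1, the endothelial receptor that binds BMP9, was lower at -1.23 ± 0.26 (adjusted p = 3.55e-06) per the authors' deposited table. The endothelial marker list held 2 higher, 4 lower and 6 uncalled genes, with a median of -0.24 and values from -2.40 to 1.11. The part of endothelial cells in the Acvrl1 value was not tested. Acvr1b, the main activin type I receptor, was lower at -1.12 ± 0.25 (adjusted p = 1.48e-05) and Acvr1, a BMP and activin receptor, at -0.89 ± 0.28 (adjusted p = 0.00278) per the authors' deposited table. Bmpr1a, the broadly expressed BMP receptor, was not called at -0.41 ± 0.26 (interval -0.92 to 0.11), nor was Tgfbr1, the TGF-beta type I receptor, at 0.11 ± 0.25 (interval -0.38 to 0.61) per the authors' deposited table. Acvr1c, a receptor typical of adipocytes that binds activin B and GDF3, was not called at -0.29 ± 0.30 (interval -0.88 to 0.29) on a base mean of 6693 per the authors' deposited table. The intervals of these 3 genes include 0, which does not show that the depots are alike.

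Among type II receptors and co-receptors the 3 calls were all higher in iBAT. For type II receptors this was 1 of 4 genes (25%), near the 20.9% of all genes. Among all genes of above-median base mean, to which 3 of the 4 belong, 32.1% were higher. Tgfbr2, which binds TGF-beta and phosphorylates Tgfbr1, was higher in iBAT at 1.01 ± 0.19 (adjusted p = 5.31e-07), 2.02-fold, per the authors' deposited table. Bmpr2, the BMP type II receptor, was not called at 0.46 ± 0.21 (adjusted p = 0.0557), but passed when genes were centred on the median of all genes (adjusted p = 0.0231) and when only genes of base mean 50 or more were adjusted (0.0468). The activin type II receptor genes Acvr2a (0.53 ± 0.30, adjusted p = 0.116) and Acvr2b (0.11 ± 0.86, base mean 9.02) were not called per the authors' deposited table. Tgfbr3, the co-receptor betaglycan that presents TGF-beta and inhibin, was higher at 0.38 ± 0.15 (adjusted p = 0.0286), and the related Tgfbr3l at 1.35 ± 0.38 (adjusted p = 0.00052), per the authors' deposited table. Beside the 3 lower TGF-beta ligand genes, their type II receptor gene Tgfbr2 and the co-receptor gene Tgfbr3 were thus higher in iBAT, whereas the co-receptor gene Eng, described further on, was lower.

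The 8 Smad genes had log2 fold changes between -1.44 and 0.66 per the authors' deposited table. Higher calls made up 37.5% and lower calls 25%. These shares lie near the 32.1% and 24.8% of all genes of above-median base mean, to which 6 of the 8 belong. The 2 Smads of the TGF-beta and activin branch were higher in iBAT, Smad2 at 0.66 ± 0.18 (adjusted p = 0.000519) and Smad3 at 0.64 ± 0.19 (adjusted p = 0.00233), 1.58-fold and 1.56-fold, per the authors' deposited table. The Smads of the BMP branch were mixed: Smad5 was higher at 0.52 ± 0.22 (adjusted p = 0.0394), Smad9 lower at -1.44 ± 0.34 (adjusted p = 4.02e-05) and Smad1 not called at -0.38 ± 0.18 (adjusted p = 0.0652) per the authors' deposited table. The Smad5 call was just lost with p from fold change over SE (adjusted p = 0.0503). Smad4, the common partner, was not called at 0.44 ± 0.25 (adjusted p = 0.133) per the authors' deposited table. Of the inhibitory Smads, Smad7 was lower at -0.75 ± 0.22 (adjusted p = 0.00163), 1.68-fold, and Smad6 was not called at 0.15 ± 0.26 (interval -0.36 to 0.66) per the authors' deposited table. Both inhibitory Smads are themselves induced by the pathway.

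The other 5 members are named for the pathway without being its ligands, receptors or Smads. Per the authors' deposited table, 4 of the 5 were lower in iBAT, against 27.1% of all genes. Tgfb1i1, a focal adhesion adaptor of smooth muscle and stromal cells, was lower at -1.79 ± 0.31 (adjusted p = 9.02e-09), Tgfbi, a TGF-beta-induced matrix protein, at -1.39 ± 0.19 (adjusted p = 1.78e-12), and Bmper, a secreted BMP-binding modulator, at -1.30 ± 0.20 (adjusted p = 2.54e-10), per the authors' deposited table. Bmp1, which despite its name is a protease that processes procollagen and chordin, was lower at -1.14 ± 0.28 (adjusted p = 0.000101) per the authors' deposited table. Tgfbrap1, a receptor-associated vesicle trafficking protein, was not called at 0.998 ± 0.59 (adjusted p = 0.0817) per the authors' deposited table.

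Several members lie near each other in the genome (RefSeq, GRCm38.p6). Acvrl1 and Acvr1b, 28.7 kb apart on chromosome 15 with no protein-coding gene between them, were lower by similar amounts, at -1.23 and -1.12 per the authors' deposited table. Gdf10 and Gdf2, 4.52 kb apart on chromosome 14, were both called lower, Gdf2 on few counts. Acvr1c and Acvr1, 88.5 kb apart on chromosome 2, stood at -0.29 (not called) and -0.89 (lower) per the authors' deposited table. Smad3 and Smad6, 195 kb apart on chromosome 9 with no protein-coding gene between them, stood at 0.64 (higher) and 0.15 (not called) per the authors' deposited table. Tgfbi and Smad5 are neighbours 63.7 kb apart on chromosome 13 and were called in opposite directions, at -1.39 and 0.52 per the authors' deposited table. Smad7 and Smad2, 845 kb apart on chromosome 18 with 2 protein-coding genes between them, were also called in opposite directions.

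Proteins that surround the pathway were examined as 6 lists. The extracellular antagonists, which bind ligands or block their receptors, gave 15 lower calls, 1 higher call and 6 genes without a call among 22 measured, and their median was -1.19 per the authors' deposited table. Grem1 (-5.02 ± 0.87, adjusted p = 7.35e-09) and Nog (-4.36 ± 0.64, adjusted p = 6.48e-12), which encode the BMP antagonists gremlin and noggin, were lower per the authors' deposited table. So were the chordin genes Chrdl1 (-4.01 ± 0.36) and Chrd (-2.78 ± 0.26), and the follistatin-like gene Fstl3 (-3.63 ± 0.41), whose protein binds activins, per the authors' deposited table. Sost, which encodes the bone protein sclerostin, had the lowest fold change of the list at -11.70 ± 3.76 (adjusted p = 9.98e-07) per the authors' deposited table, and whether its count was 0 in iBAT is not known. Kcp, a chordin-like protein that enhances BMP signalling, was the exception and was higher at 1.98 ± 0.48 (adjusted p = 2.87e-05) per the authors' deposited table. The share of lower calls was 68.2% in this list, against 27.1% of all genes. As the list also holds genes such as Fstl3 and Kcp, this share is not one of BMP antagonists alone. Of the 22 measured genes 10 had a base mean under 50, Grem1 among them at 39.9. The lower call of Lefty1 was lost with p from fold change over SE (adjusted p = 0.0946).

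**Figure D3:**
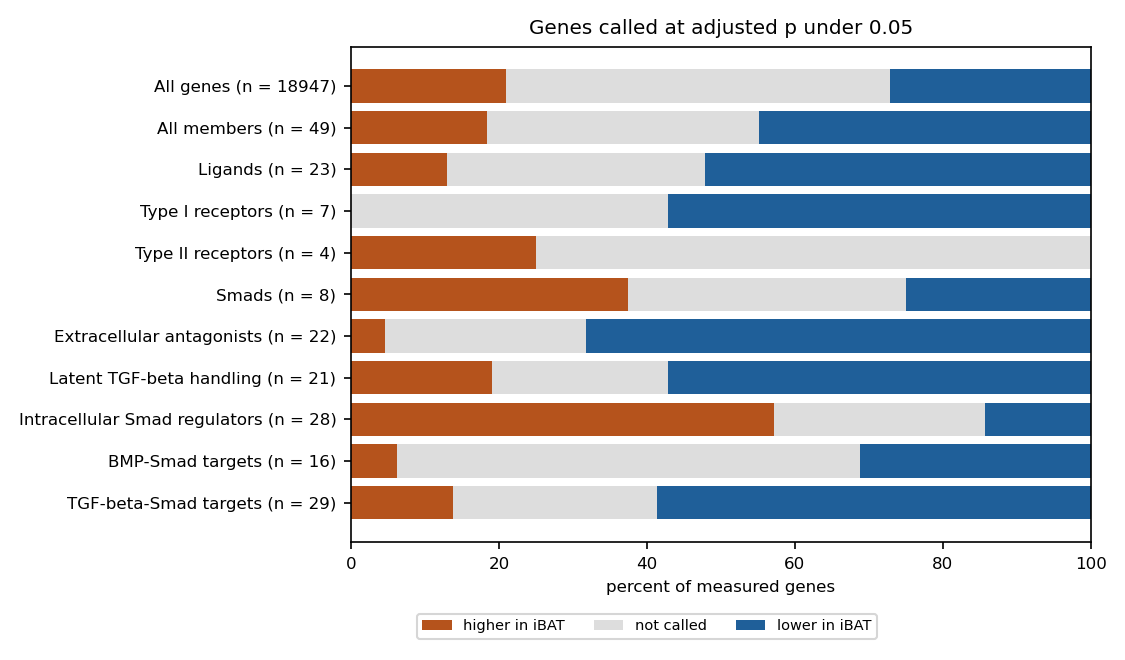
Percent of measured genes called higher in iBAT, not called and called lower in iBAT (adjusted p under 0.05, authors' deposited table) for all genes, the members and groups of them, and 5 lists of pathway genes. Lower calls make up 52.2% of ligands and 68.2% of extracellular antagonists, while higher calls make up 57.1% of the intracellular regulators of Smads.

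Storage and activation of latent TGF-beta was a second extracellular list with mostly lower calls, 12 of 21 genes against 4 higher and 5 not called (median -1.26 per the authors' deposited table). Lower calls made up 57.1%, against 27.1% of all genes, and the 19.0% of higher calls lay near the 20.9% of all genes. Fmod (-5.85 ± 0.34, adjusted p = 1.52e-65) and Dcn (-2.18 ± 0.16, adjusted p = 4.32e-42), which encode the TGF-beta-binding proteoglycans fibromodulin and decorin, were lower in iBAT per the authors' deposited table. Thbs1, the latent TGF-beta activator thrombospondin 1 (-4.63 ± 0.50, adjusted p = 1.82e-20), and Fbn2, a fibrillin (-4.22 ± 0.89, adjusted p = 1.33e-06), were lower too. Fbn2 had a base mean of 24.0. Ltbp2, a matrix protein of the latent TGF-beta binding family that does not itself bind latent TGF-beta, was higher at 3.16 ± 0.19 (adjusted p = 3.24e-61) per the authors' deposited table. The ligand-processing proteases Furin (1.08 ± 0.18) and Pcsk6 (0.49 ± 0.16) were higher as well per the authors' deposited table. Itgb6, an integrin subunit that activates TGF-beta, was called higher at 0.98 ± 0.47 (adjusted p = 0.0439) and lost the call with p from fold change over SE (adjusted p = 0.0849). Dcn and Lum of this list are also fibroblast markers; without them 10 of 19 genes were lower and the median remained -1.26.

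Intracellular regulators of Smads went in the other direction. Of 28 genes 16 had higher calls, 4 had lower calls and 8 had none (median 0.56 per the authors' deposited table). Higher calls made up 57.1% of the list, against 20.9% of all genes and 32.1% of all genes of above-median base mean, to which 26 of the 28 belong. Tob2 (2.83 ± 0.17, adjusted p = 2.93e-61) and Tob1 (2.57 ± 0.23, adjusted p = 1.85e-28), antiproliferative proteins that repress BMP Smads, were higher per the authors' deposited table. Nedd4l, a ubiquitin ligase for Smad2 and Smad3, was higher at 1.37 ± 0.31 (adjusted p = 1.54e-05), and Skil, a Smad co-repressor, at 1.14 ± 0.31 (adjusted p = 0.000473), per the authors' deposited table. These were the 4 of the 20 calls with a log2 fold change of at least 1 in either direction. The lower ones were Fkbp1a (-0.70 ± 0.21), which encodes a type I receptor inhibitor, Stub1 (-0.57 ± 0.20), Ski (-0.54 ± 0.14), a co-repressor related to Skil, and Wwp2 (-0.40 ± 0.12), per the authors' deposited table. The ubiquitin ligase genes Smurf1 (0.11 ± 0.20) and Smurf2 (0.29 ± 0.24) were not called per the authors' deposited table.

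Genes known as transcriptional targets were read as 2 lists. BMP-Smad targets gave 1 higher call, 5 lower calls and 10 genes without a call among 16 (median -0.42 per the authors' deposited table). The 37.5% called lie below the 48% of all genes, and the 31.2% lower lie near the 27.1% of all genes. Higher calls made up 6.25%, against 20.9% of all genes. The Id genes, the classic BMP targets, did not move together: Id2 was higher at 1.37 ± 0.24 (adjusted p = 5.33e-08), Id3 lower at -0.78 ± 0.35 (adjusted p = 0.0379), and Id1 (-0.15 ± 0.23) and Id4 (-0.36 ± 0.39) were not called, per the authors' deposited table. The Id3 call was lost with p from fold change over SE (adjusted p = 0.0601). Hey1, a Notch and BMP target, was lower at -1.11 ± 0.28 (adjusted p = 0.000108) and Atoh8 at -0.996 ± 0.30 (adjusted p = 0.00133) per the authors' deposited table. Dlx3 (-4.67 ± 1.48) and Sp7 (-4.36 ± 2.99), factors of skin and bone, were called lower on base means of 7.76 and 3.32 per the authors' deposited table, and the Sp7 call was lost with p from fold change over SE (adjusted p = 0.255).

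TGF-beta-Smad targets gave 17 lower calls, 4 higher calls and 8 genes without a call among 29, and the median was -0.62 per the authors' deposited table. Lower calls made up 58.6% and higher calls 13.8%, against 27.1% and 20.9% of all genes. Sphk1, a sphingosine kinase (-4.49 ± 0.49, adjusted p = 1.68e-19), and Ccn2, connective tissue growth factor (-2.85 ± 0.24, adjusted p = 1.62e-31), were lower per the authors' deposited table. The smooth muscle genes Tagln (-2.84 ± 0.40) and Acta2 (-2.81 ± 0.46) were lower too per the authors' deposited table. The higher ones were the cell cycle inhibitor gene Cdkn1a (2.90 ± 0.19, adjusted p = 4.58e-49), the matrix gene Ccn1 (1.28 ± 0.30), Junb, an AP1 factor (1.27 ± 0.35), and Zeb1, a zinc finger factor (1.11 ± 0.22), per the authors' deposited table. Tagln and Acta2 are also smooth muscle markers and Col1a1 and Col3a1 fibroblast markers. Without these 4 genes 13 of 25 targets were lower, 4 higher and the median was -0.58.

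**Figure D4:**
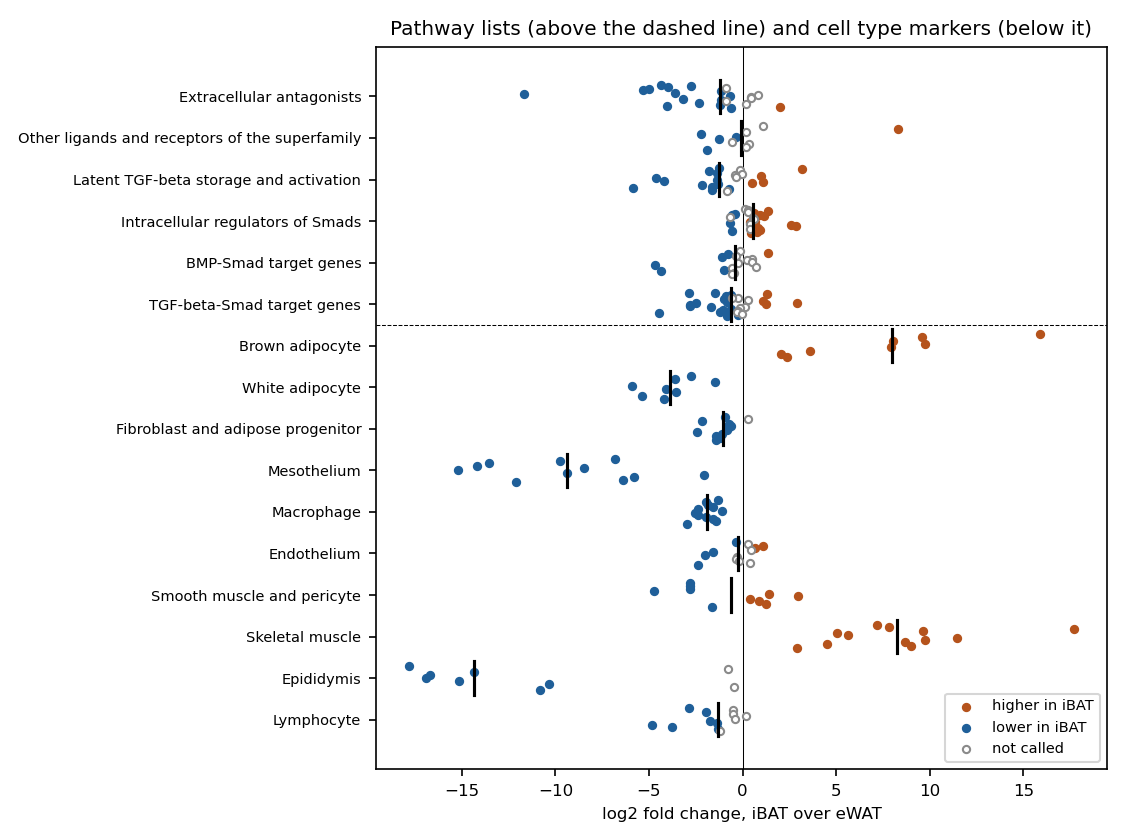
Log2 fold change in iBAT over eWAT of each gene of the 6 pathway lists (above the dashed line) and of the 10 cell type marker lists (below it), from the authors' deposited table, with the median of each list as a black bar and filled points for genes called. Antagonists, latent TGF-beta genes and TGF-beta-Smad targets have medians of -1.19, -1.26 and -0.62. Every marker list but brown adipocyte (7.95) and skeletal muscle (8.24) also has a negative median, from -0.24 (endothelium) to -14.34 (epididymis). Without Acta2 and Tagln, which are also TGF-beta-Smad targets, the smooth muscle and pericyte list has a positive median of 0.64.

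Among the remaining ligands and receptors of the superfamily, 1 of 10 measured genes was higher in iBAT and 4 were lower (median -0.09 per the authors' deposited table), so that 50% were called, near the 48% of all genes. Mstn, which encodes myostatin, a ligand made by skeletal muscle, was higher at 8.30 ± 3.15 (adjusted p = 3.73e-05) on a base mean of 14.5 per the authors' deposited table, beside the 12 of 12 skeletal muscle markers that were higher with a median of 8.24. The part of muscle tissue in this value was not tested. Amhr2, the anti-Müllerian hormone receptor (-2.21 ± 0.52, adjusted p = 1.55e-05), Ret, a receptor used by GDF15 (-1.91 ± 0.20, adjusted p = 8.67e-22), and Bambi, a decoy receptor (-1.28 ± 0.28, adjusted p = 1.05e-05), were lower in iBAT per the authors' deposited table. Endoglin, Eng, an endothelial co-receptor, was lower by a small amount at -0.34 ± 0.13 (adjusted p = 0.0179), and this call was lost after centring on the median of all genes (adjusted p = 0.124).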

How the data were processed

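Stranded total RNA libraries were made from TRIzol and RNeasy extracts and sequenced on an Illumina NextSeq, per the labels' protocols. Per the submitters' processing notes the tools included kallisto 0.45.0, DESeq2 and DESeq, and the builds GRCm38 and mm10, with no role stated. The authors deposited 1 comparison of the mRNA samples. Per the file headers its base mean, used here as a signal, is the mean of counts divided by size factors. Its log2 fold changes and SEs are log2 values the authors deposited, and no source used here says whether they were shrunken; if they were, folds, intervals and p from fold change over SE are those of shrunken values. Its p-values and adjusted p-values were also deposited by the authors. Adjusting them again by Benjamini-Hochberg changed no adjusted p by more than 2.4e-07. In 10.7% of genes the p-value matched the normal p of fold change divided by SE (tolerance 0.01 in log10 units). No source used here names the test or the aligner's role, so calls use the deposited values as they stand.

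Identifiers were matched to symbols for 18758 of 18947 genes, with 189 unmatched. Intervals are 1.96 SE either side of a fold change (95%). Members, lists and tests were chosen with earlier results of these data known. Genes named are all called members, all members of above-median base mean, and up to 4 genes a direction of each list by size of fold change; others named were chosen after their values were seen, and 1 gene that the rule names is not reported here. Fst, Cfc1, Hjv, Gfral, Hamp, Hamp2, Muc16 and Lcn9 of the lists were not analysed here. Of 10 low-count members, fold changes were set beside genes of base mean within 1.2 times. Alternatives were p from fold change over SE, the same after centring on the median fold change, an adjusted p under 0.01, a log2 fold change of at least 1 and a base mean of at least 50. The adjustment was tested on simulated fold changes, and the symbol rule and motif search were checked on a few short examples. Python 3.11.15, pandas 2.3.3 and scipy 1.17.1 were used.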

Additional observations from a re-analysis of the deposited data

How the results depend on the processing

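No paired analysis was possible because no mRNA values of single libraries were at hand, and leaving out each replicate was not run for the same reason. The families' counts of 9 higher and 22 lower were 8 and 19 with p from fold change over SE, 10 and 19 after centring, 7 and 20 at an adjusted p under 0.01, and 10 and 20 among genes of base mean 50 or more. With a log2 fold change of at least 1 they were 4 higher and 19 lower. That setting also took the intracellular regulators from 20 calls to 4, and the base mean minimum took the other ligands and receptors from 5 to 3, since both settings leave out genes by construction. With p from fold change over SE, 4 members (Bmp15, Gdf2, Inhba, Smad5) and 8 listed genes lost their call. Centring that test on the median of all genes (-0.10) left Bmp15, Gdf2 and Inhba without a call, while Smad5 and Bmpr2 passed.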

Other observations

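Of the 10 members with a base mean under 50, 2 were called, Gdf2 and Bmp15, and both have the lowest fold changes of the families on the log2 scale (-5.37 and -4.18 per the authors' deposited table). Among 499 genes of base mean within 1.2 times that of Gdf2, 6 had a lower fold change, and the lowest was -5.68. Among 516 such genes for Bmp15, 10 were lower and the lowest was -4.79. Whether either gene had any count in iBAT cannot be read from the table.

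For all 49 members, and for 98.7% of all genes, the deposited p-value was smaller than the p of fold change over SE, and it matched that p within 0.01 on the log10 scale for 2 members. The gap was wide for Gdf2, with an adjusted p of 0.0015 deposited by the authors and 0.109 from fold change over SE, and narrow for Bmp6, at 0.0022 and 0.00259.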
